A study of Sus scrofa with 40 samples.

Results

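AKR1B1, the gene of aldose reductase, was followed in Longissimus muscle (LM) through the 2 probes of its contig among the 15198 gene probes of a pig muscle array. The study's supplementary table of genes lower in B pairs probe BQ598667.1_1259, called the first probe here, with this symbol. The array design places BQ598667.1_1319, the second probe, 60 bases further along the same contig, and no probe table used here gives it a symbol. The contig holds no other probe. That the second probe reads AKR1B1 rests on this shared contig and could not be checked, and both are called AKR1B1 probes in that sense. The first probe was selected on its measured difference between breeds, and the second was chosen by its position, with its own breed difference already known to be unlike that of the first. The breed difference of each probe, and the disagreement between them, are therefore described with no test. Tests were kept for housing system, for its interaction with breed, and for the relation of the 2 probes among pigs of the same breed.

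The study set the local Basque breed (B) beside the Large White breed (LW) in 2 housing systems, conventional (C) and alternative (A). Each of the 4 groups held 10 pigs, castrated males by the methods, and the labels give a live weight of 145 kg for all 40. RNA of each pig, in Cy3, was hybridized with a pool of all 40 pigs, in Cy5, on an array of its own, with no dye swap. The values below are log2 ratios of pig to pool after correction for background, with the median of each array subtracted, so that 0 is the median probe of an array and not the mean of the pigs. Breed, age and feeding history cannot be told apart, since by the methods pigs were slaughtered at a set weight and not at a set age. By the methods 2 pigs came from each litter, and litter is not in the labels.

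Aldose reductase uses NADPH to turn glucose into sorbitol, the opening step of the polyol pathway, and sorbitol dehydrogenase then turns sorbitol into fructose. The enzyme also reduces aldehydes that arise when lipids are oxidized, and in the kidney medulla it makes sorbitol that balances the high tonicity around the cells. In muscle most of the glucose taken up is phosphorylated by hexokinase instead, and goes to glycolysis or glycogen.

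The arrays of B alternative 15 and LW alternative 18 stood apart from the others. On these arrays 5 and 7 of 15744 spots, the AKR1B1 probes not among them, had a local background over 100 intensity units above their own signal. The background mean that the correction fitted was -859 in Cy3 and -942 in Cy5 on B alternative 15, and -199 and -707 on LW alternative 18. On the other 38 arrays it lay between -11.0 and 7.76. With the 12 spots left out of the correction, the means of both arrays lay between -5.53 and 3.31. Leaving out these spots was chosen after seeing the data.

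On the first probe, the log2 ratio to the pool of the B conventional pigs ran from -1.05 to 0.22, with a median of -0.83. In B alternative pigs it ran from -1.02 to -0.27, with a median of -0.84. The log2 ratios of B pigs were thus negative, all but that of B conventional 4, at 0.22. LW conventional pigs lay between -0.20 and 0.55, with a median of 0.27. LW alternative pigs lay between -0.11 and 0.99, with a median of 0.21, and the highest was LW alternative 18, at 0.68 with the 12 spots left out. Those of LW pigs were positive except in LW conventional 8 and LW alternative 13. The breeds overlapped through B conventional 4 and B conventional 5, at 0.22 and -0.07, which were the only 2 B pigs above the lowest LW pig. All 20 B pigs were below the LW median. Ordered by median, the groups ran from B alternative through B conventional and LW alternative to LW conventional, and the groups of the same breed did not differ beyond their spread. Without the 12 spots the median of B alternative pigs was -0.76, above that of B conventional pigs.

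The first probe averaged -0.73 ± 0.33 over the 20 B pigs and 0.25 ± 0.24 over the 20 LW pigs (SD). In the model with breed, housing system, their interaction and slide, B minus LW was -0.99 (SE 0.093, 95% confidence interval -1.18 to -0.80), or 0.504 times the LW level. This was larger than the spread among the pigs of either breed. It was -0.96 (SE 0.085) without the 12 spots. It was -0.96 in C and -1.02 in A housing (SE 0.13 in each), and -0.96 and -0.97 without these spots. In bulk muscle, fewer cells that hold what this probe reads and less of it per cell cannot be told apart. The second probe of the contig differed by only -0.07 between breeds, and what sets the first probe apart from it was not tested. Over the 7 slides B minus LW of this probe ran from -1.24 to -0.80, and over the 3 scan days from -1.24 to -0.91.

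On the second probe, the B conventional pigs ran from -0.49 to -0.05, with a median of -0.33. The B alternative pigs ran from -1.08 to -0.05, with a median of -0.30. The lowest of them was B alternative 15, whose value was -0.23 with the 12 spots left out, and the lowest of the group was then -0.43. LW conventional pigs lay between -0.61 and 0.04 on this probe, with a median of -0.16. LW alternative pigs lay between -0.56 and 0.66, with a median of -0.32, and LW alternative 18, the highest, was at 0.20 without the 12 spots. Here the breeds lay over one another, with 19 of 20 B pigs above the lowest LW pig and 12 of 20 below the LW median. By median the order was B conventional, LW alternative, B alternative and LW conventional, and no neighbours in it differed beyond their spread. With the 12 spots left out the median of B alternative pigs was -0.25, and the order of the groups was the same.

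The second probe averaged -0.31 ± 0.23 over the 20 B pigs and -0.22 ± 0.26 over the 20 LW pigs (SD), or -0.27 ± 0.14 and -0.24 ± 0.19 without the 12 spots. B minus LW was -0.07 (SE 0.080, 95% confidence interval -0.24 to 0.09), less than the spread among pigs. It was -0.02 (SE 0.054, interval -0.13 to 0.09) without the 12 spots. By slide it was 0.26 on the slide with 1 pig of each breed and ran from -0.18 to 0.00 on the other 6, or to 0.11 without the 12 spots, and by scan day from -0.12 to -0.06, or from -0.11 to 0.00 without the 12 spots. In limma, 21.2% of the 12222 tested probes were called between breeds at an adjusted P value of 0.05, and 9.61% were called as lower in B. The first probe was among the latter and the second was not called, and nothing is read from this, since the same contrast chose them.

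**Figure D1:**
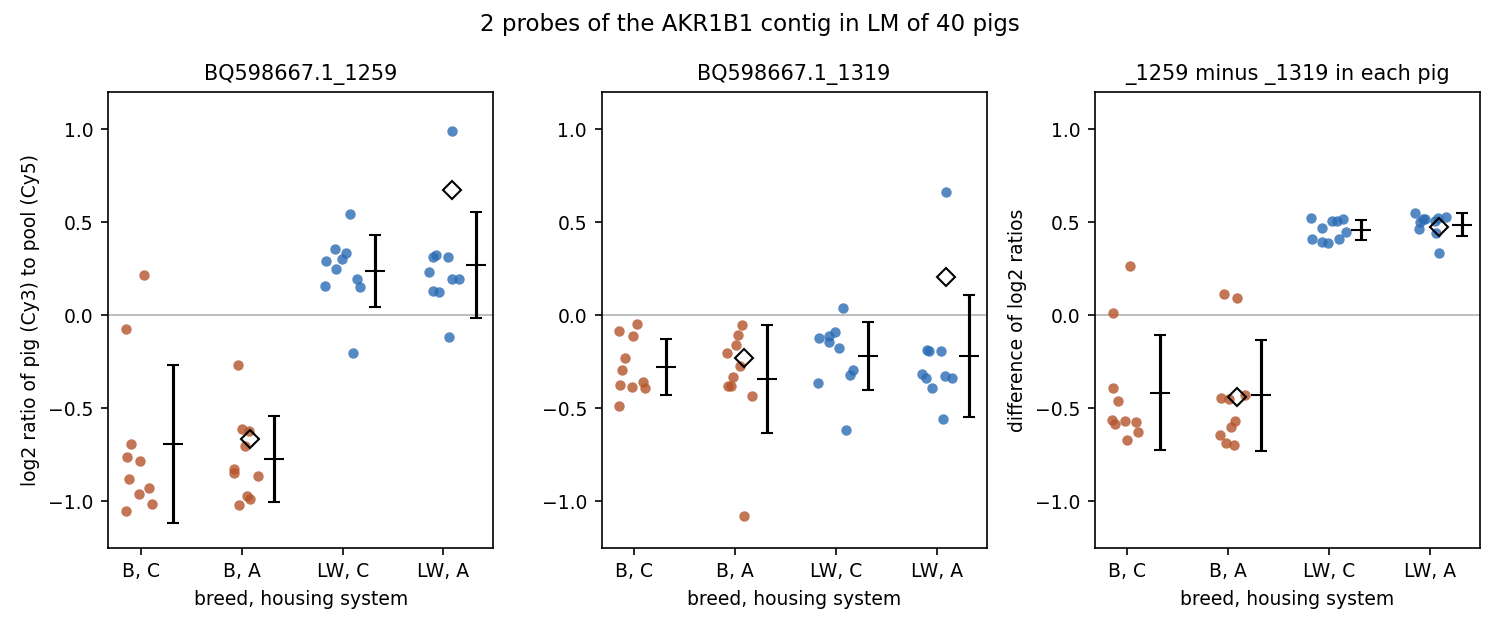
Log2 ratio of pig to pool (vertical axis) by breed and housing system, for the first probe, the second probe and the first minus the second in each pig. Each point is 1 pig, bars are mean ± SD of 10 pigs, and open diamonds are B alternative 15 and LW alternative 18 with 12 spots of bright local background left out. On the first probe B averaged -0.73 and LW 0.25, and on the second -0.31 and -0.22.

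Both spots were bright. Each was well above background in Cy3 and in Cy5 on 40 of 40 arrays, and 0 were marked as outliers or saturated. The Cy3 intensity of the first probe had a median of 767 in B pigs (592 to 1507) and 1633 in LW pigs (1300 to 2344), over a local background of 40.0 to 52.0. That of the second probe had a median of 3719 in B pigs (3200 to 5631) and 3765 in LW pigs (3074 to 5933). The breed difference of the first probe was thus already present in the intensities of the pigs' own channel before any correction. In Cy5, where every array held the same pool, the first probe had a median of 2464 on the arrays of B pigs and 2599 on those of LW pigs.

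Within each pig the log2 ratio of the second probe was subtracted from that of the first. In LW pigs this difference lay between 0.33 and 0.55, with a median of 0.50 and an SD of 0.059, and without the 12 spots the lowest was 0.39 and the SD 0.049. In B pigs it lay between -0.70 and 0.26, with a median of -0.56 and an SD of 0.30, or 0.27 without the 12 spots. The breeds did not overlap, with a gap of 0.07 between the highest B pig and the lowest LW pig, and of 0.13 without the 12 spots. The disagreement of the breed differences chose the probes, so that this separation is a description. The share of other probe pairs that separate the breeds in this way is not given here. Of single probes 21.2% were called between breeds, or 28.7% without the 12 spots, which is another measure and not a share of pairs. B minus LW of the within-pig difference was -0.92 (SE 0.067, 95% confidence interval -1.05 to -0.78), and -0.94 (SE 0.063) without the 12 spots. It ran from -1.13 to -0.64 over the slides and from -1.13 to -0.79 over the scan days.

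The LW pigs held to nearly the same difference, and the B pigs did not. Among B pigs, 16 lay between -0.70 and -0.39, and the other 4 stood above a gap of 0.40. These were B conventional 5 at 0.01, B alternative 15 at 0.09, B alternative 11 at 0.12 and B conventional 4 at 0.26. Without the 12 spots B alternative 15 was at -0.44, among the lower pigs, which left 17 below the gap and 3 above it. The same 3 pigs stood above the widest gap with no background correction, with the processed signals of the scanner software and in the series matrix, and B alternative 15 stood with them after loess. In the 3 pigs it was the first probe that was high for B pigs, with -0.07 in B conventional 5, -0.27 in B alternative 11 and 0.22 in B conventional 4, above a gap of 0.34. On the second probe they had -0.09, -0.38 and -0.05, among or next to the other B pigs, of which B conventional 4 was there the highest. Of the 3, 2 were kept in C and 1 in A housing. What these pigs share was not tested, since neither litter nor genotype is in the labels.

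**Figure D2:**
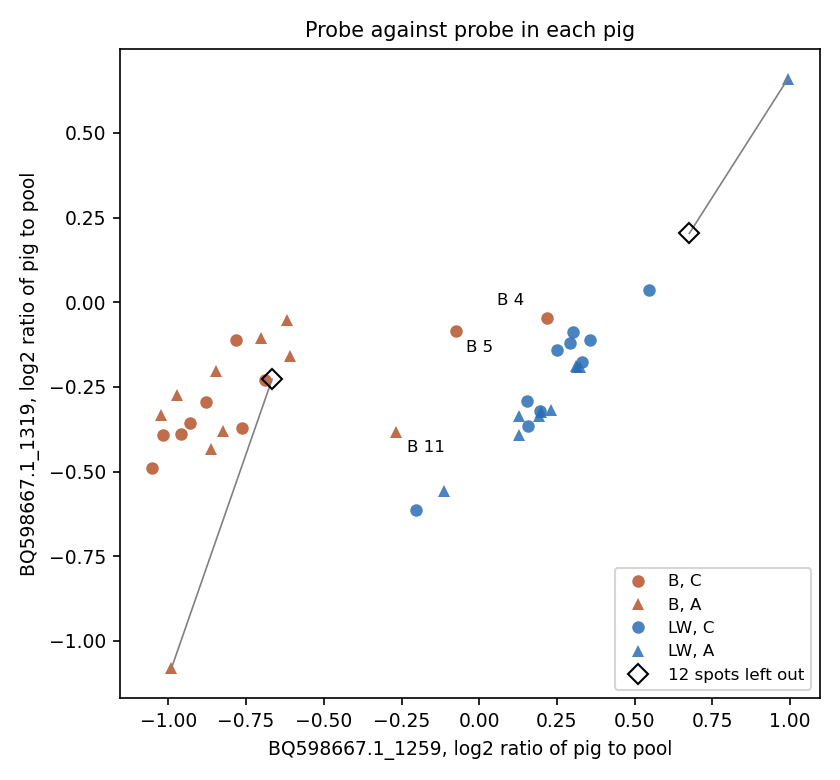
Log2 ratio of pig to pool of the second probe (vertical axis) against the first (horizontal axis), each point 1 pig, with lines to open diamonds for B alternative 15 and LW alternative 18 after 12 spots of bright local background were left out. LW pigs lie along a line (r = 0.98 over 20 pigs), and B conventional 4, B conventional 5 and B alternative 11 stand to the right of the 17 other B pigs.

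The array gives a measure of how far 2 probes of the same contig usually differ. In all, 839 contigs had 2 tested probes, and 173 of these pairs lay 60 bases apart, as the AKR1B1 probes do. B minus LW of the within-pig difference had a median size of 0.037 over the 839 pairs, and 95% of them were under 0.23. Over the 173 pairs 60 bases apart the median was 0.027. At -0.92 the AKR1B1 pair was the farthest of all 839, without the 12 spots too, and the next pair was at 0.82, also with 60 bases between its probes. Both probes were called between breeds in 151 pairs, 1 of the 2 in 123 and neither in 565. The AKR1B1 probes are among the 123. The SD of the AKR1B1 difference was wide in B, where it was 0.30 against a median of 0.11, and only 16 of the 839 pairs were at least as wide, AKR1B1 included. In LW the SD of 0.059 stood against a median of 0.12, and 57 pairs had a smaller one. These counts of pairs were 21 and 23 without the 12 spots. Over the 16 B pigs below the gap in the AKR1B1 difference the SD was 0.097, or 0.099 over 17 without the 12 spots. Over the 173 pairs the median SD was 0.091 in B and 0.089 in LW, with 4 at least as wide as AKR1B1 in B and 21 narrower in LW. Without the 12 spots 7 of the 173 were at least as wide in B and 9 narrower in LW. The pair was chosen for its disagreement, so that its place among the others is a description.

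**Figure D3:**
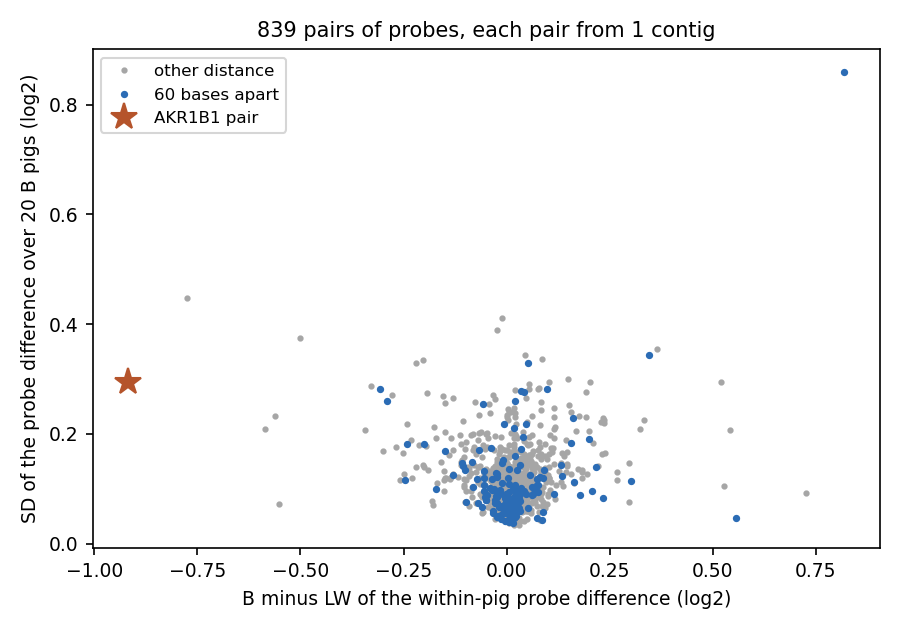
SD over 20 B pigs of the within-pig difference between 2 probes of a contig (vertical axis, log2) against B minus LW of that difference (horizontal axis, log2), each point 1 of 839 pairs. The AKR1B1 pair, marked by a star, lies at -0.92 and 0.30, and the next farthest pair at 0.82.

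The probes were chosen by their breed differences, which exchanging pigs within a breed leaves as they are, and the relation between the probes was tested within breeds. The test asks only whether r differs from 0. Over the 839 pairs of probes of a contig the median r was 0.81 in B and 0.87 in LW, so that passing it is not particular to AKR1B1. In LW, Pearson's r over 20 pigs was 0.98 (permutation test, two-sided, p = 1e-05, adjusted over the 2 breeds p = 2e-05) and Spearman's rho 0.89 (p = 1e-05), where 1e-05 is the smallest p these permutations can give. Without the 2 LW pigs farthest from the median of the first probe, LW conventional 8 and LW alternative 18, r was 0.94 (permutation p = 1e-05). In B, r was 0.50 (permutation p = 0.040, adjusted p = 0.040) and rho 0.69 (p = 0.0013). With Cy3 intensity alone, r in B was 0.42 and did not pass (permutation p = 0.066), while rho was 0.60 (p = 0.0063). Without the 2 farthest B pigs, B conventional 4 and B conventional 5, r was 0.39 and did not pass (permutation p = 0.10), while rho was 0.57 (p = 0.015), so that the call of Pearson's r was lost without those 2 pigs when B alternative 11 was kept. With the 12 spots left out r was 0.61 in B (permutation p = 0.0029) and 0.97 in LW (p = 1e-05), and in B it was 0.40 (p = 0.10) without the same 2 pigs. On the first probe 17 B pigs lay below the widest gap. Over these 17, without B alternative 11 too, r was 0.60 (permutation p = 0.0045), or 0.74 (p = 0.0011) without the 12 spots. The gap was found in the same values, so that these 2 p are no independent test. The 3 above the gap were too few for a correlation. Whether r differed between the breeds was not tested.

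No slide held more than 4 pigs of a breed, under the 6 needed for a correlation, and none was computed within slides. Among the pigs of the second scan day, r was 0.47 in B (n = 10, permutation p = 0.16) and 0.99 in LW (n = 10, permutation p = 4e-05). Among those of the third scan day it was 0.62 in B (n = 7, exact permutation p = 0.15) and 0.91 in LW (n = 7, exact permutation p = 0.0085). The B value of that day, which includes B alternative 15, was 0.71 without the 12 spots (n = 7, exact permutation p = 0.022). Pearson's r thus passed within both days in LW, and in B on the third day alone and only without the 12 spots. After slide and housing system were taken out, r was 0.60 in B (permutation p = 0.0086) and 0.99 in LW (permutation p = 1e-05). Over the 839 pairs of probes of a contig, the median r was 0.81 in B and 0.87 in LW, and 666 pairs in B and 120 in LW had an r at least that of AKR1B1, or 612 and 136 without the 12 spots. Over the 173 pairs 60 bases apart the median r was 0.92 in B and 0.94 in LW, and 153 in B and 47 in LW had an r at least that of AKR1B1.

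Housing system asked whether AKR1B1 differed between A and C pigs of a breed. In B, A minus C was -0.07 on the first probe (SE 0.13, 95% confidence interval -0.34 to 0.20, adjusted P = 0.999 in limma) and -0.07 on the second (SE 0.11, interval -0.30 to 0.16, adjusted P = 0.999). In LW it was -0.01 on the first probe (SE 0.14, interval -0.29 to 0.27) and -0.05 on the second (SE 0.12, interval -0.29 to 0.19), with an adjusted P value of 0.99956 for both. Neither probe passed the test in either breed, and the intervals, which reach from -0.34 to 0.27, leave room for differences smaller than the breed difference of the first probe. With the 12 spots left out A minus C was -0.04 and 0.01 in B, and -0.03 and -0.08 in LW. The within-pig difference between the probes changed by 0.00 with housing system in B and by 0.04 in LW, and by -0.05 and 0.05 without the 12 spots, which was not tested.

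The breed by housing interaction was -0.06 on the first probe (SE 0.19, interval -0.44 to 0.32, adjusted P = 0.982) and -0.02 on the second (SE 0.16, interval -0.35 to 0.31, adjusted P = 0.995). Neither passed, and the values were -0.01 and 0.10 without the 12 spots. In limma 0 of 12222 probes (0%) were called in B, and 294 (2.41%) had an unadjusted P value under 0.05. In LW the numbers were 0 (0%) and 360 (2.95%), and for the interaction 0 (0%) and 324 (2.65%). An analysis in 2 steps, slide first and then breed and housing as in the methods but on the probes and log2 ratios of the limma model, also called 0 in each, with 291 (2.38%), 550 (4.50%) and 540 (4.42%) under 0.05 unadjusted.

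The probe sequences are shown since the 2 probes read neighbouring stretches of the same contig. Both are 60 bases long, the last 30 are printed 5′ to 3′, and AATAAA, the most common signal for cleavage and polyadenylation of a transcript, is in capitals.
BQ598667.1_1259: cagcacctctaacagttggattttgactgc
BQ598667.1_1319: tccttgcctcaAATAAAaagtgctcttatg
The second probe holds AATAAA from base 42, with 13 bases after it, and the first probe holds neither AATAAA nor ATTAAA. Searched on the printed strand, AATAAA is in 1322 of the 15198 probes (8.70%) and ATTAAA in 3.72%. A match of letters is not a signal in use, and whether it is used in LM of either breed was not tested. The first probe has 35.0% G and C and the second 40.0%, against a median of 45.0% over all probes. The longest stretch that both probes hold is 6 bases, so that neither is a copy of the other. A pig genome or transcript sequence to place them in the gene was not at hand, and a base difference between the breeds under either probe could not be looked for.

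Likeness to other probes was measured by Pearson's r over 40 pigs on what was left after breed, housing system, their interaction and slide. The 2 AKR1B1 probes had r = 0.74 with each other, and 0.71 without the 12 spots. Only the 682 other probes of the supplementary table of genes selected as lower in B could be named, and among these those most like the first probe were LDHA, lactate dehydrogenase A (r = 0.64), BPGM, bisphosphoglycerate mutase (0.64 and 0.59 on 2 probes), RBM9, an RNA-binding protein (0.61), and BGN, the matrix proteoglycan biglycan (0.61). Without the 12 spots their r was between 0.49 and 0.56, and C14ORF179 (0.61) and MCM2, a replication helicase subunit (0.57), came ahead of them. The least like were BLOC1S2 (-0.47), TAF1B (-0.45), DHX37 (-0.45), C6ORF62 (-0.45) and HNRNPA1L2 (-0.43). Of probes outside that table, AJ680018.1_49 (0.78) and CF366557.1_1356 (0.73, or 0.39 without the 12 spots) were the most like it, and BM190220.1_1401 (-0.60) and BF189934.1_981 (-0.57) the least. Without the 12 spots CF179565.1_758 (0.64) took the place of CF366557.1_1356, and CF792235.1_1150 (-0.59) that of BF189934.1_981.

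For the second probe the nearest of the 682 were C7ORF53 (0.76), HHATL (0.74), TPD52 (0.74), MRPS6, a protein of the mitochondrial ribosome (0.71), and SSPN, sarcospan of the muscle membrane (0.70). All of these lay under 0.78, where the top 1% of the 12218 other probes began, so that many probes that could not be named were nearer. These genes and those nearest to the first probe had no symbol in common. With the 12 spots left out the same r values were 0.55, 0.54, 0.55, 0.68 and 0.47. MRPS6 was then the nearest of the 682. The least like were MTX3 (-0.52), HIST1H1B (-0.47), C9ORF103 (-0.45), EIF4EBP1 (-0.44) and HOPX (-0.43), and without the 12 spots these were at -0.13, -0.35, -0.36, -0.27 and -0.43. The least like were then BLOC1S2 (-0.62 and -0.52) and PHKA1 (-0.61 and -0.51), on 2 probes each, and PFKP (-0.56). Of probes outside that table, BM658512.1_886 (0.91) and BM190561.1_541 (0.89) were nearest to the second probe, and BP171296.1_305 (-0.60) and CF364076.1_792 (-0.56) farthest. Without the 12 spots BQ603564.1_1353 (0.83) and BM658512.1_886 (0.79) were nearest, and BE232396.1_140 and AJ664544.1_296 (-0.66 each) farthest. The median r over the 12218 other probes was 0.10 with the first probe and 0.15 with the second, or 0.02 and 0.05 without the 12 spots. Their top 1% began at 0.57 with the first probe and 0.78 with the second, or 0.48 and 0.58 without the 12 spots. All these correlations are given with no test.

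BPGM is also the protein-coding gene next to AKR1B1 in the Sscrofa11.1 annotation, used here for gene order alone, with SLC35B4 on the other side. BPGM makes 2,3-bisphosphoglycerate from an intermediate of glycolysis. Its 2 probes gave B minus LW of -0.42 and -0.41 (SE 0.12 each). BPGM could be named only because the study selected it as lower in B, so that its direction is not independent evidence. The r of its 2 probes with the second AKR1B1 probe was 0.56 and 0.61, with a median of 0.49 without the 12 spots. Both were under the 0.78 where the top 1% of all other probes began. This neighbour was looked up after the data were seen. SLC35B4 had no probe in the same table.

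The other genes around aldose reductase were taken from 4 lists and paired with probes through the supplementary table named above. That table holds only genes that the study selected as lower in B on these samples, so that the direction of a list is not independent evidence. Of its 683 probes, 509 were called lower in B and 0 higher, with a median of -0.26 against 0.00 over all tested probes, and 541 were called lower without the 12 spots. From the list of the polyol pathway and glucose entry, which holds AKR1B1 through its first probe, the values of PGM1 and SLC5A4 are given, both called lower in B. PGM1, phosphoglucomutase, which links glycogen and glycolysis, differed by -2.13 and -2.10 on its 2 probes (SE 0.29 each). SLC5A4, of the sodium and glucose cotransporters, differed by -0.70 (SE 0.12). SORD, the sorbitol dehydrogenase that takes up the product of aldose reductase, was not paired.

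Enzymes of carbonyl and aldehyde handling, the other substrates of aldose reductase, had 11 of 28 genes paired. Of their 14 probes 12 were called lower in B and 0 higher, with a median of -0.39, and 11 were called without the 12 spots. GRHPR, which reduces glyoxylate and hydroxypyruvate, differed by -1.07 (SE 0.14), and ESD, the esterase that frees formate from S-formylglutathione, by -1.05, -0.55 and -0.38 on 3 probes. CBR1, carbonyl reductase, was at -0.25 (adjusted P = 0.041), and lost its call without the 12 spots (adjusted P = 0.057). QDPR (-0.15) and ALDH16A1 (-0.16) did not pass. For glutathione and peroxide handling, 4 of 19 genes were paired, and all 5 probes were called lower in B, with a median of -0.39. The largest were those of GPX8, a peroxidase of the endoplasmic reticulum, at -0.99 and -0.82 (SE 0.12 and 0.099). Of the list of osmolyte transport and tonicity response, 0 of 4 genes were paired. No probe of these lists was called for housing system in limma, as for 0 of all probes.

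The relation of AKR1B1 to the latter lists among pigs was read after breed, housing system and slide were taken out. The median r with the first probe was 0.18 over the probes of the carbonyl list and 0.35 over those of the glutathione list. It was 0.07 and 0.44 when the 12 spots were left out. For the second probe the medians were 0.16 and 0.21, and 0.10 and 0.31 without those spots.

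Markers of the cell types of muscle were read beside AKR1B1, paired through the same table of genes selected as lower in B, so that their direction is not independent evidence either. Their counts stand beside the 509 of 683 probes of that table, and the 9.61% of all tested probes, that were called lower in B. Of the muscle fibre markers 7 of 13 genes were paired, and 4 of 7 probes were called lower in B and 0 higher, with a median of -0.28. Their mean log2 ratio in a pig ran from -0.87 to -0.25 in B (median -0.46) and from -0.72 to 0.25 in LW (median -0.12). Every one of these probes was well above background on 40 of 40 arrays, as the label of skeletal muscle asks. The fibroblast and matrix list had 6 of 9 genes paired and 6 of 9 probes called lower in B, or 7 without the 12 spots, with a median of -0.38, and its largest were those of SPARC at -1.47 and -0.68. Its mean ran from -0.80 to 0.03 in B (median -0.42) and from -0.72 to 0.54 in LW (median 0.18).

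Smooth muscle and pericyte markers had 3 of 5 genes paired, and 2 of 3 probes were called lower in B (median -0.27), with a mean in each pig of -0.53 to -0.09 in B and -1.08 to 0.21 in LW. Immune markers had 2 of 5 genes paired, CORO1A at -0.29 and IRF8 at -0.76, both called lower in B, with a mean of -0.87 to 0.04 in B and -0.63 to 1.17 in LW. The lists of adipocytes (0 of 5), endothelium (0 of 4) and red blood cells (0 of 2) had no gene paired. On the mean of each of these lists the breeds overlapped. After breed, housing system and slide, the median r with the first probe was 0.31 for muscle fibre, 0.29 for fibroblast and matrix, 0.30 for smooth muscle and 0.10 for immune markers, and with the second probe 0.36, 0.43, 0.25 and 0.02. With the 12 spots left out the medians were 0.24, 0.25, 0.36 and 0.13 for the first probe, and 0.29, 0.36, 0.44 and 0.09 for the second. The part of cell composition in the AKR1B1 values was not tested. Intensities of different probes do not rank genes by abundance, so that no most abundant marker is given.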

How the data were processed

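The authors deposited the intensities of every spot as scanned, Cy3 for the pig and Cy5 for the pool, with local background and marks of the Agilent software. The authors also deposited log2 ratios of pig to pool in a series matrix made with limma by their processing notes, whose medians per array lay between -0.015 and 0.026. Set against the scanner software's processed signals, these log2 values had r of 0.967 to 0.997 on 38 arrays, and 0.680 and 0.833 on B alternative 15 and LW alternative 18. The main values were computed here from the intensities.

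R 4.3.3 and limma 3.58.1 were used, with normexp for background and an offset of 50. Cy3 was divided by Cy5 on the log2 scale, each array's median over the 15198 gene probes was subtracted, and outlier spots were left out. Testing asked for a Cy3 signal well above background on 10 or more of the arrays of B or of LW pigs, which 12222 probes had, both AKR1B1 probes among them. Slide, breed, housing system and the interaction of the latter 2 were terms of 1 limma model with moderated tests, adjusted by Benjamini-Hochberg over all tested probes. Correlations were tested with 1e+05 permutations, or all orders for 7 pigs, two-sided, in scipy 1.17.1 under Python 3.11.15, with pandas 2.3.3, numpy 2.4.6 and matplotlib 3.10.9. For arrays, the number of pigs limits the precision. The limma and permutation tests were tested on simulated data. Breed, housing system and number of each pig came from the labels. P values treat littermates as independent.

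Genes were named by a rule: both probes of the contig, all members of 4 lists (polyol pathway and glucose entry, carbonyl and aldehyde handling, glutathione and peroxide handling, osmolyte transport and tonicity response) and of the marker lists that the supplementary table of genes lower in B pairs with a probe, and the 5 most and 5 least like each probe. The other supplementary gene table was not used, since its probes are out of step with its symbols. The members and lists were chosen with earlier results of these data known. Alternatives changed the background correction, dye normalization, spot and probe filters, slide term, array weights and the model (2 steps, after the methods, on the same log2 ratios), and left out each pig. The 12 spots, the 2 arrays left out, the scan days and the 17 B pigs below the gap were chosen after seeing the data.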

Additional observations from a re-analysis of the deposited data

Results flagged for a closer look

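In each group of 10 pigs, the gap between the lowest or highest pig and its nearest neighbour was divided by the range of the group, for the first probe, the second probe and their difference. In 5 of the 12 groups of values 1 pig stood far from the others, where chance gives about 1 in 20 independent groups. The 12 hold the same pigs on both probes and on their difference, so that they are not independent and the 5 cannot be set against that share. On the first probe these were LW conventional 8, the lowest of its group (share of the range 0.479), and LW alternative 18, the highest (0.603). On the second probe they were B alternative 15, the lowest (0.629), and LW alternative 18, the highest (0.697). For the first probe minus the second, LW alternative 18 was the lowest (0.504). B alternative 15 and LW alternative 18 are the pigs whose arrays had spots of bright local background, and without these 12 spots 3 of the 12 groups of values held such a pig. These were LW conventional 8 on the first probe (0.479), LW alternative 18 on the second (0.514) and B alternative 11 for the difference (0.670).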

How the results depend on the processing

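B minus LW of the first probe kept its direction under 14 alternatives, from -1.08 (processed signals) to -0.94 (both arrays with bright spots left out), and from -1.03 to -0.95 when each pig in turn was left out. On the second probe it ran from -0.09 to 0.00, and from -0.10 to -0.03 without 1 pig. That of the within-pig difference ran from -0.99 to -0.90, and from -0.95 to -0.90 without 1 pig. Differences between housing systems ran from -0.13 to 0.13 over 15 alternatives, with adjusted P values of at least 0.976, or 0.931 without 1 pig, and the interaction from -0.11 to 0.20, with at least 0.919 and 0.927. Under each of the 15, which include the analysis in 2 steps, 0 probes were called for housing system or the interaction. Probes called between breeds numbered 2459 to 3929, the most with array weights, against 2593, and 3503 without the 12 spots. In B Pearson's r of the probes did not pass without the 2 farthest pigs (0.39, and 0.40 with the 12 spots out), on the second scan day (0.47, and 0.47 with the 12 spots out), on the third (0.62, which passed at 0.71 with the 12 spots out) or with Cy3 alone (0.42), and the scan days held fewer pigs. Spearman's rho in B passed without the 2 farthest pigs (0.57), on the third scan day (0.86) and with Cy3 alone (0.60), and not on the second day (0.50). The cause for Cy3 alone was not tested. Pigs with the same number in both breeds did not pair (median r -0.018 over 20 pairs), and with the number as replicate block 2645 probes were called. Both probes were well above background on 40 of 40 arrays, and the SE of B minus LW on the second probe was 0.080, or 0.054 without the 12 spots.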
